A study of Homo sapiens with 20 samples.

Results

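The response to a BET inhibitor was compared between 2 human B lineage cell lines, LP-1, from a multiple myeloma, and Raji, from a Burkitt lymphoma. For every probe set, the log2 expression under the inhibitor minus that under the inactive enantiomer was taken within each line, and the LP-1 value was subtracted from the Raji value. This quantity is called the line difference here: a positive value means that the response lay higher in Raji, a negative value that it lay lower. The 4 and 8 h arrays were pooled, so 16 of the 20 arrays of the series entered, 4 for each line and compound, and all 22011 probe sets were tested. The 8 groups behind it were LP-1 or Raji cells exposed to 500 nM of the active compound or of its inactive enantiomer for 4 or 8 h, each as 2 biological replicates per the labels. The other 4 arrays held untreated cells at 0 h, 2 of each line, and gave the level of each gene before treatment. The labels name neither compound, and no untreated cells were analysed at 4 or 8 h. Each disease was represented by 1 line, and the lines were grown in different media (IMDM for LP-1, RPMI for Raji), so line, disease and medium cannot be told apart.

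BET proteins, such as BRD2, bind acetylated lysines on histones through their bromodomains and help to recruit the elongation kinase P-TEFb to genes. BET inhibitors occupy the pocket that holds the acetylated lysine, and a mirror-image form that does not bind well serves as a control for effects of the chemical itself. Genes under strong enhancers, which often mark the identity of a cell, are known to be sensitive to these compounds. The 2 lines stand at different stages of the B lineage: myeloma cells resemble antibody-secreting plasma cells, and Burkitt lymphoma cells resemble germinal centre B cells and carry MYC joined to an immunoglobulin locus.

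The untreated arrays bore out the labelled origin for most markers. Of 8 plasma cell markers, 6 were higher in untreated LP-1 and 1, CD38, was higher in untreated Raji, and all 9 measured B cell markers were higher in untreated Raji. Of 14 T and NK cell markers, TRAT1 and CD28 were higher in untreated LP-1 (Raji minus LP-1, -2.44 and -2.54). In untreated LP-1 7 of these 14 were below the 25th percentile of the arrays, and in untreated Raji 9 were. No marker of myeloid cells, epithelial cells and fibroblasts, or erythroid cells was called different between the untreated lines. The 35 measured markers of these other cell types held no called line difference of the response, which says nothing about identity. Replicate arrays correlated at r = 0.973 to 0.989 over probe sets. An LP-1 array with the inhibitor at 4 h and a Raji array with the inactive enantiomer at 4 h, both replicate 1, had the lowest 75th percentiles of their lines, 6.80 and 6.75, and counts without both are given below. In bulk RNA, a change in the share of cells that express a gene and a change in the RNA per cell cannot be told apart.

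In limma's model, 208 probe sets had a called line difference (a Benjamini-Hochberg adjusted p under 0.05 among all those tested), or 0.945% of those tested. Of these, 119 (0.541% of those tested) lay higher and 89 (0.404%) lower in Raji, and 173 belonged to a single gene. The response itself was called for 1554 probe sets in LP-1 (7.06% of those tested; 577 or 2.62% higher and 977 or 4.44% lower) and for 1385 in Raji (6.29%; 947 or 4.3% higher and 438 or 1.99% lower). Both lines called 480 probe sets, which is 30.9% of the LP-1 calls and 34.7% of the Raji calls, and 469 of them moved the same way. The other 11 moved in opposite directions, and all 11 had a called line difference. Among the 1074 probe sets called in LP-1 alone, 101 (9.4%) had a called line difference, and among the 905 called in Raji alone, 79 (8.73%) did. For most responses called in 1 line, a difference between lines was thus not shown. Over all 22011 probe sets the responses of the lines correlated at r = 0.267, a description across genes, which are not independent.

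**Figure D1:**
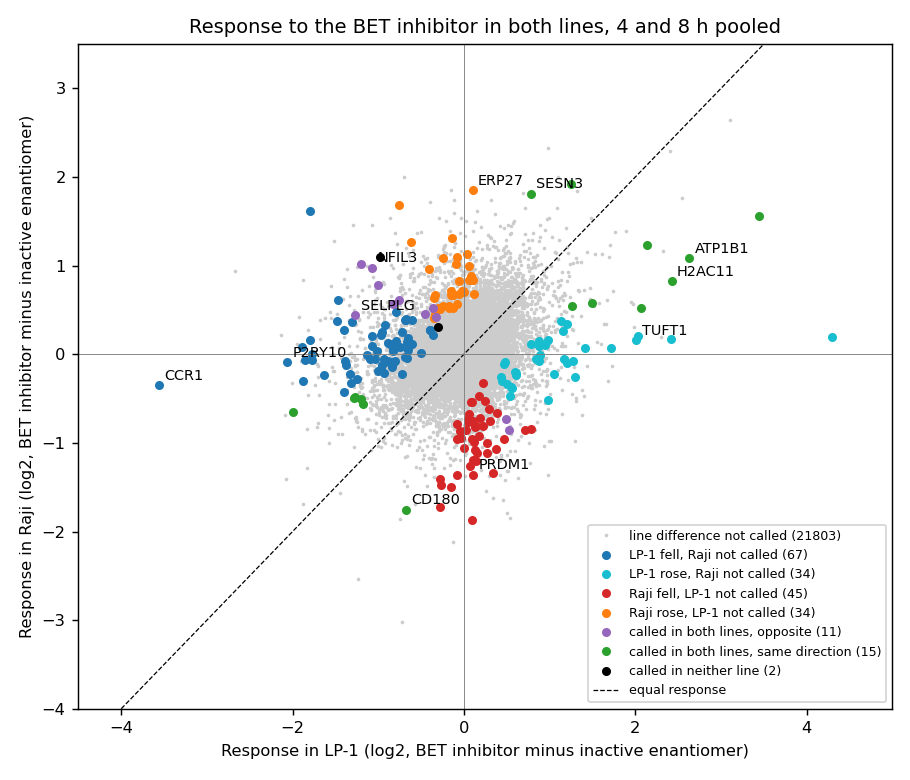
Response of every probe set in LP-1 (x axis) and Raji (y axis), each as log2 expression under the BET inhibitor minus that under the inactive enantiomer, 4 and 8 h pooled. Coloured points are the 208 called line differences, sorted by which line's own response was called; 67 fell in LP-1 with no call in Raji and 45 fell in Raji with no call in LP-1, and the dashed line marks equal responses.

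The count of 208 moved with single arrays. Here and throughout, a single array was left out only if the comparison uses its value. For the line difference these are the 16 treated arrays, not the untreated ones. It was 323 without replicate 2 of LP-1 with the inhibitor at 4 h. It was 88 or 99 without replicate 1 or 2 of LP-1 with the inactive enantiomer at 4 h, and 96 without replicate 2 of that compound at 8 h. In Raji with the inhibitor it was 126 or 103 without replicate 1 or 2 at 4 h and 122 or 96 without replicate 1 or 2 at 8 h, and without replicate 2 of the inactive enantiomer at 8 h it was 114. Without both arrays of low 75th percentile it was 90, of which 75 were among the 208. In all, 72 of the 208 stayed called whichever 1 array was left out, 62 of them with a single gene symbol. Under quantile normalization the split was 101 higher and 122 lower, against 119 and 89 as deposited, so the balance of directions depends on the scaling. With time left out of the model, which puts changes between 4 and 8 h into the error, 64 were called, 62 of them among the 208. The directions of the responses within each line moved too. Under quantile normalization 847 were higher and 1003 lower in LP-1, and 868 higher and 707 lower in Raji; against untreated cells the counts were 308 and 1720 in LP-1 and 352 and 321 in Raji. Without replicate 1 of LP-1 with the inhibitor at 4 h they were 619 and 630 in LP-1. The response counts fell to 828, 844 and 946 in LP-1 without the 3 inactive enantiomer arrays of that line named above, and to 700, 779 and 857 in Raji without the inhibitor array of replicate 2 at 4 h, that at 8 h, and the inactive enantiomer array of replicate 2 at 8 h.

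The most frequent pattern was a fall in LP-1 with no called response in Raji, seen for 67 of the 208 probe sets and 53 genes. Their median response was -0.94 on the log2 scale in LP-1 and 0.03 in Raji. CCR1, a receptor for inflammatory chemokines, had the largest line difference of a named gene. In LP-1, CCR1 was at 7.24, 7.33, 6.67 and 7.16 under the inactive enantiomer (4 h replicates 1 and 2, then 8 h replicates 1 and 2, the order used throughout) and at 3.92, 3.89, 2.80 and 3.54 under the inhibitor. In Raji, CCR1 was at 2.96, 3.13, 3.39 and 2.12 under the inactive enantiomer and at 3.10, 2.57, 1.83 and 2.70 under the inhibitor. The LP-1 groups were far apart and the Raji groups overlapped. The line difference was 3.21 ± 0.39 (SE; 4 arrays per line and compound; adjusted p = 0.00329), a 9.26-fold gap between responses. CCR1 was below the 25th percentile of the untreated Raji arrays, so a fall there could hardly be seen.

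P2RY10, a G protein-coupled receptor for lysophospholipids on lymphocytes, did not have that limit, since it started at like levels in both lines (6.26 and 6.33 in untreated LP-1, 6.0 and 5.87 in untreated Raji). In LP-1 it was at 6.63, 6.89, 6.56 and 6.71 under the inactive enantiomer and at 4.35, 5.12, 4.90 and 4.16 under the inhibitor. The Raji arrays were at 5.70, 5.81, 5.53 and 6.18 under the inactive enantiomer and at 5.30, 5.65, 5.82 and 6.11 under the inhibitor. It fell on all 4 LP-1 arrays and the Raji groups overlapped, with a line difference of 1.98 ± 0.29 (adjusted p = 0.00869). RGS1, which dampens signals from such receptors, fell in both lines, by 1.99 in LP-1 and by 0.65 in Raji, with a line difference of 1.34 ± 0.23 (adjusted p = 0.0204). Of the 23 measured chemokine receptors, chemotactic receptors and RGS genes, these 3 lay higher in Raji and GPR183 lay lower. Over all 14232 genes, 96 had a called line difference higher in Raji and 77 lower. The median line difference of the 23 was -0.08 against -0.00 over all genes. The platelet-activating factor receptor PTAFR, picked out after its value was seen, had a value of -2.30 ± 0.52 that missed the threshold (adjusted p = 0.0663), with a fall of 3.02 in Raji.

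Signalling genes with a fall in LP-1 alone included IL12A, SPRY1 and EDNRB. IL12A, which encodes the p35 chain of interleukin-12, was at 6.0, 6.15, 5.71 and 6.10 in LP-1 under the inactive enantiomer and at 4.57, 4.55, 4.59 and 4.64 under the inhibitor. The matching Raji values were 3.68, 3.96, 3.44 and 3.29 and then at 4.06, 3.78, 3.68 and 3.96, with overlap. The 4 LP-1 arrays with the inhibitor were nearly equal, and the line difference was 1.67 ± 0.17 (adjusted p = 0.00132). SPRY1, a feedback inhibitor of receptor tyrosine kinase signalling, had a line difference of 1.95 ± 0.33 (adjusted p = 0.0188) with a response of -1.79 in LP-1 and 0.16 in Raji. EDNRB, the endothelin receptor type B, fell by 1.63 in LP-1, and its line difference was 1.40 ± 0.22 (adjusted p = 0.014). IL12A, SPRY1 and EDNRB were all below the 25th percentile in untreated Raji, so a fall there could hardly be seen.

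Further genes fell in LP-1 alone with varied roles. TUBD1, which encodes delta-tubulin of centrioles, was expressed in both lines and fell by 1.31 in LP-1, with a line difference of 1.67 ± 0.16 (adjusted p = 0.00132). SLC16A14, a member of the monocarboxylate transporter family, had a line difference of 1.57 ± 0.30 (adjusted p = 0.0278), and FJX1, a secreted or Golgi protein of the four-jointed family, one of 1.79 ± 0.36 (adjusted p = 0.036). PECAM1, an adhesion molecule of leukocytes and endothelium, was at 7.87, 7.78, 7.30 and 7.57 in LP-1 under the inactive enantiomer and at 7.12, 7.83, 5.20 and 4.80 under the inhibitor. The 2 arrays at 8 h were low and 1 array at 4 h was not, so the LP-1 groups overlapped (line difference 1.32 ± 0.27, adjusted p = 0.0382). SAMD9L, an interferon-inducible growth restraint, fell by 1.04 in LP-1 and had a line difference of 0.98 ± 0.20 (adjusted p = 0.0363). SLC16A14, PECAM1 and SAMD9L were below the 25th percentile in untreated Raji, with the same limit. Without 1 array the adjusted p reached 0.0769 for SLC16A14 and 0.103 for FJX1, PECAM1 and SAMD9L.

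HMOX1 and ANXA1 had line differences that turned on the control. HMOX1, the inducible haem oxygenase, was at 7.76 and 7.56 in untreated LP-1, at 9.99, 10.05, 10.17 and 10.30 under the inactive enantiomer and at 8.05, 7.97, 8.91 and 8.49 under the inhibitor. ANXA1, an anti-inflammatory annexin, was at 4.34 and 4.22 in untreated LP-1, at 7.09, 6.84, 6.91 and 6.98 under the inactive enantiomer and at 4.30, 5.29, 6.01 and 5.13 under the inhibitor. ANXA1 was below the 25th percentile in untreated Raji. For both genes the inactive enantiomer arrays of LP-1 lay above all others of that line. Their line differences against the inactive enantiomer were 1.71 ± 0.29 (adjusted p = 0.0164) for HMOX1 and 1.77 ± 0.34 (adjusted p = 0.0307) for ANXA1. With untreated cells as the control they were -0.46 and -0.86 and were not called (adjusted p = 0.541 and 0.328). Of all 208, 200 kept their sign with untreated cells as the control, 104 kept sign and call, and 8 turned. Among the 55 named genes with a called line difference 16 kept their sign but lost their call. The value of ZNF208 went to -0.07, and others that lost their call included P2RY10 (1.44, adjusted p = 0.071), ERP27 (1.21), FJX1 (0.85), CRIP1 (0.80) and CD180 (-0.58).

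Opposite responses in the 2 lines were found for 11 probe sets. The 9 that fell in LP-1 and rose in Raji were TENT5C, NFIL3, RGL1, SELPLG, IL6ST, MLLT3, EMP3, RRP8 and LPXN, and the 2 that rose in LP-1 and fell in Raji were ZMIZ1 and OR4S2. NFIL3, a basic leucine zipper transcriptional repressor, was at 9.47, 9.30, 9.34 and 9.20 in LP-1 under the inactive enantiomer and at 7.88, 8.14, 8.54 and 8.46 under the inhibitor. In Raji, NFIL3 was at 5.47, 5.94, 6.30 and 5.77 and then at 6.64, 7.27, 6.69 and 6.79. Neither pair of groups overlapped, and the line difference was 2.05 ± 0.22 (adjusted p = 0.00211). The response narrowed a gap between the lines that was 3.79 before treatment.

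SELPLG, which encodes the selectin ligand PSGL-1, had the smallest adjusted p of the named genes. In LP-1 it was at 8.56, 8.68, 8.18 and 8.34 under the inactive enantiomer and at 7.64, 7.81, 6.62 and 6.61 under the inhibitor, and in Raji at 3.87, 4.26, 3.70 and 3.80 and then at 4.39, 4.43, 4.22 and 4.37. The LP-1 groups were apart and the Raji groups overlapped narrowly (line difference 1.71 ± 0.14, adjusted p = 0.000569, with -1.27 in LP-1 and 0.44 in Raji). The untreated Raji arrays were at 4.27 and 4.50, about the level under the inhibitor. The Raji rise of SELPLG was thus seen against the inactive enantiomer only, while its line difference kept its call with untreated cells as the control. TENT5C, a cytoplasmic poly(A) polymerase often mutated in myeloma, was at 5.17, 5.10, 4.72 and 4.85 and then at 3.66, 3.89, 3.44 and 4.05 in LP-1. In Raji it was at 3.19, 4.04, 3.73 and 4.07 and then at 4.16, 5.34, 5.12 and 4.47. TENT5C showed no overlap in either line and a line difference of 2.22 ± 0.37 (adjusted p = 0.0155). RGL1, an exchange factor for Ral GTPases, had a line difference of 1.78 ± 0.20 (adjusted p = 0.00211), with -1.01 in LP-1 and 0.78 in Raji.

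IL6ST encodes gp130, the shared signalling chain of the interleukin-6 receptor family, through which interleukin-6 sustains many myelomas. It was at 10.03, 10.10, 10.08 and 10.14 in LP-1 under the inactive enantiomer and at 8.79, 9.31, 9.37 and 9.58 under the inhibitor. The Raji arrays were at 5.66, 5.90, 6.16 and 5.64 and then at 6.27, 6.44, 6.37 and 6.53. The groups were apart in both lines, with a line difference of 1.39 ± 0.20 (adjusted p = 0.0079). MLLT3 (AF9), a chromatin reader of the super elongation complex, fell by 0.76 in LP-1 and rose by 0.61 in Raji (line difference 1.36 ± 0.18, adjusted p = 0.00565). ZMIZ1, a PIAS-like transcriptional coactivator, went the other way, with 0.49 in LP-1 and -0.74 in Raji (line difference -1.23 ± 0.15, adjusted p = 0.00329). RRP8, a nucleolar methyltransferase, had a line difference of 0.88 ± 0.13 (adjusted p = 0.0115), LPXN, the adaptor leupaxin, one of 0.75 ± 0.12 (adjusted p = 0.0127) and EMP3, a membrane protein, one of 0.90 ± 0.17 (adjusted p = 0.0274). The olfactory receptor gene OR4S2 (-1.37 ± 0.19, adjusted p = 0.00599) was below the 25th percentile in both untreated lines. With untreated cells as the control the value turned to -0.20 for EMP3 and 0.14 for OR4S2, and RRP8 kept its sign but lost its call. EMP3, RRP8 and OR4S2 also lost their calls with time left out of the model, and EMP3 under quantile normalization.

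**Figure D2:**
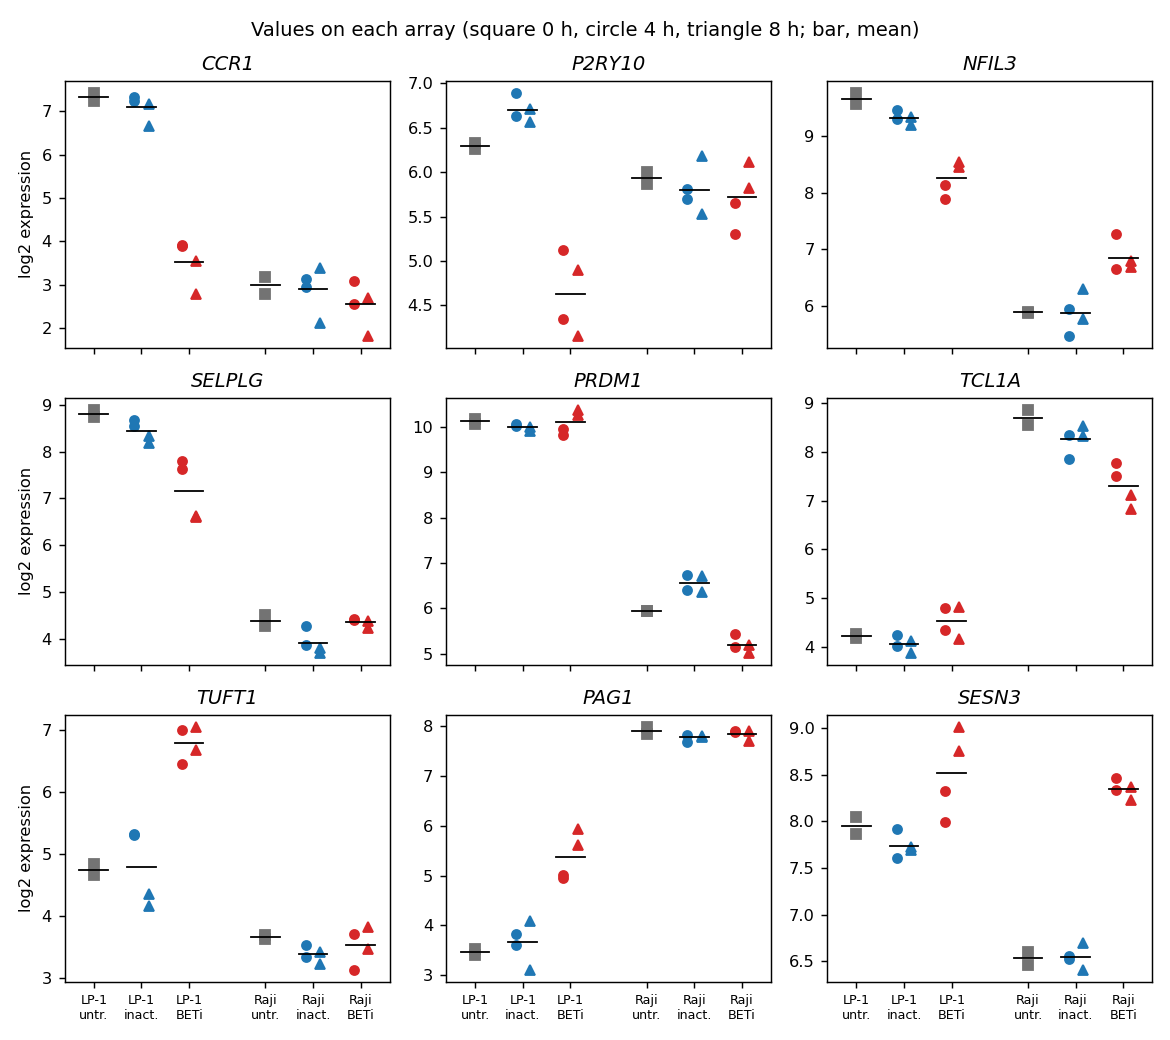
Log2 expression on each array for 9 genes, with untreated cells (grey), the inactive enantiomer (blue) and the BET inhibitor (red) in LP-1 and Raji; squares are 0 h, circles 4 h and triangles 8 h, and bars are means of 2 untreated or 4 treated arrays. CCR1 and P2RY10 moved in LP-1, PRDM1 in Raji, NFIL3 in opposite directions, and SESN3 rose in both lines by different amounts.

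Genes that rose in LP-1 with no called response in Raji numbered 29, from 34 probe sets, with median responses of 0.91 and -0.07. TUFT1, which encodes tuftelin, was at 5.32, 5.30, 4.15 and 4.35 in LP-1 under the inactive enantiomer and at 6.45, 6.99, 6.67 and 7.04 under the inhibitor. The matching Raji values were 3.52, 3.34, 3.22 and 3.42 and then at 3.70, 3.13, 3.46 and 3.82. The LP-1 groups were apart although the inactive enantiomer arrays differed between 4 and 8 h, and the line difference was -1.85 ± 0.22 (adjusted p = 0.00329). PAG1, an adaptor that anchors the kinase CSK at lipid rafts, was at 3.83, 3.61, 4.09 and 3.11 and then at 4.96, 5.02, 5.93 and 5.61 in LP-1. In Raji, PAG1 stayed between 7.68 and 7.90 on all 8 arrays. The inhibitor thus raised in LP-1 a gene that Raji already expressed highly, with a line difference of -1.64 ± 0.23 (adjusted p = 0.00712). FGD6, an exchange factor for the GTPase CDC42, showed the same arrangement, with untreated Raji higher by 3.67 and a line difference of -1.83 ± 0.26 (adjusted p = 0.00671).

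GPR50, an orphan receptor related to melatonin receptors, had the lowest line difference of the named genes, -2.25 ± 0.33 (adjusted p = 0.00966), and rose by 2.42 in LP-1. SERPINE2, a secreted protease inhibitor, rose by 1.30 in LP-1 (line difference -1.55 ± 0.26, adjusted p = 0.0167), and FTL, the ferritin light chain, by 1.15 (line difference -0.89 ± 0.18, adjusted p = 0.0382). The zinc finger gene ZNF208 (-1.49 ± 0.26, adjusted p = 0.0209) was below the 25th percentile in both untreated lines, as was the polo-like kinase and p53 target PLK2 (-1.28 ± 0.27, adjusted p = 0.0493). With untreated cells as the control the value was -0.07 for ZNF208 (adjusted p = 0.934) and -0.74 for PLK2 (adjusted p = 0.295). ICAM3, a leukocyte adhesion molecule, rose by 0.47 in LP-1 (line difference -0.57 ± 0.12, adjusted p = 0.0453). Without 1 array the adjusted p reached 0.113 for FTL, 0.138 for PLK2 and 0.135 for ICAM3.

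Immediate early genes, which respond within minutes to growth signals and stress, leaned the same way. Of 19 measured, 7 rose in LP-1 and 1 rose in Raji, and 3, EGR1, ZFP36 and ATF3, had a called line difference, all lower in Raji. The median line difference was -0.30, against -0.00 over all 14232 genes. Of all genes, 460 rose in LP-1, 739 rose in Raji, and 77 had a called line difference lower in Raji. ZFP36, which encodes an mRNA decay factor, was at 6.23, 6.37, 6.30 and 6.36 in LP-1 and then at 7.67, 7.60, 7.63 and 7.15, and in Raji at 5.67, 5.75, 6.04 and 5.89 and then at 6.07, 6.34, 6.10 and 6.20. Neither pair overlapped, and the line difference was -0.86 ± 0.15 (adjusted p = 0.0197). Its call was lost with time left out of the model and with the treated arrays alone. ATF3, a stress-induced transcription factor, had a line difference of -0.82 ± 0.12 (adjusted p = 0.0116), with 0.60 in LP-1 and -0.22 in Raji. EGR1, a zinc finger transcription factor, rose in both lines with the times pooled, by 1.5 and 0.58 (line difference -0.92 ± 0.17, adjusted p = 0.0271; up to 0.0835 without 1 array). In Raji EGR1 rose by 1.0 at 4 h and had a response of 0.16 at 8 h (adjusted p = 0.808), the pooled LP-1 groups overlapped, and with untreated cells as the control the line difference was -0.51 (adjusted p = 0.243). FOS (-0.85 ± 0.22, adjusted p = 0.104) and JUN (-0.67 ± 0.20, adjusted p = 0.182) missed the threshold and were picked out after their values were seen.

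A rise in both lines that differed in size was called for 9 probe sets. It was larger in LP-1 for H2AC11, ATP1B1 and CEMIP2. ATP1B1, the beta subunit of the sodium pump, was at 5.09, 5.14, 4.48 and 4.82 in LP-1 under the inactive enantiomer and at 7.09, 7.32, 7.70 and 7.93 under the inhibitor. In Raji it was at 4.76, 4.96, 4.89 and 4.94 and then at 5.85, 6.50, 5.76 and 5.77. It rose on every array of both lines, by 2.63 in LP-1 and 1.08 in Raji, and the line difference was -1.54 ± 0.22 (adjusted p = 0.00671). CEMIP2, a cell surface hyaluronidase, rose by 2.06 and 0.52 (line difference -1.54 ± 0.20, adjusted p = 0.00488). Its call was lost with untreated cells as the control and with time left out of the model. H2AC11, a replication-dependent histone H2A gene, rose by 2.42 and 0.82 (line difference -1.60 ± 0.22, adjusted p = 0.00599). It was the single call among 24 measured clustered histone genes, of which 14 rose in LP-1 and 10 in Raji, and near-identical copies of such genes can share probes. Among all 14232 genes, 460 rose in LP-1 and 739 in Raji.

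The rise was larger in Raji for SESN3 and HEXIM1. SESN3, a sestrin that restrains mTORC1, was at 7.92, 7.61, 7.73 and 7.69 in LP-1 under the inactive enantiomer and at 7.99, 8.32, 9.01 and 8.75 under the inhibitor. The Raji arrays were at 6.56, 6.52, 6.69 and 6.41 and then at 8.34, 8.46, 8.23 and 8.37. Raji started lower and reached a level within the LP-1 range, with a line difference of 1.03 ± 0.16 (adjusted p = 0.0121). SESN3 was the single call among 18 measured CDK inhibitors and antiproliferative genes, of which 9 rose in LP-1 and 5 in Raji, and among 12 brakes on mTORC1. Among all 14232 genes, 460 rose in LP-1 and 739 in Raji. CDKN1A, the p21 inhibitor of cyclin-dependent kinases, also picked out after its value was seen, rose by 1.26 in LP-1 and had a response of 0.28 in Raji, but its line difference of -0.98 ± 0.28 missed the threshold (adjusted p = 0.153).

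HEXIM1, the inhibitor of P-TEFb and a known marker of BET inhibition, was called in both lines. It was at 7.14, 7.13, 6.98 and 7.14 in LP-1 under the inactive enantiomer and at 8.29, 8.07, 8.68 and 8.34 under the inhibitor, and in Raji at 6.35, 6.13, 6.36 and 6.40 and then at 8.18, 8.16, 8.23 and 8.33. The groups were apart in both lines, with rises of 1.25 and 1.92 and a line difference of 0.67 ± 0.14 (adjusted p = 0.0404; up to 0.11 without 1 array). BRD2 rose by 0.73 in LP-1 and 0.45 in Raji with no called line difference (-0.28 ± 0.11, adjusted p = 0.315). Of 14 measured BET, P-TEFb and super elongation complex genes, HEXIM1 and MLLT3 were called, both higher in Raji. Over all 14232 genes, 96 were called higher and 77 lower. The median of the 14 was 0.12 and became -0.01 under quantile normalization.

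MYC, the driver oncogene of Burkitt lymphoma and a well-known target of BET inhibitors, fell in both lines. In LP-1 it was at 9.59, 9.58, 9.37 and 9.47 under the inactive enantiomer and at 7.38, 7.18, 7.66 and 7.49 under the inhibitor, a fall of 2.08. The matching Raji values were 8.36, 8.42, 8.62 and 8.4 and then at 6.97, 7.0, 6.99 and 7.23, a fall of 1.40. The line difference of 0.67 ± 0.16 (95% interval 0.34 to 1.01) missed the threshold (adjusted p = 0.0695), and passed it at 0.0464 when the lowest 33.3% of probe sets were left out of the fit. Of 33 measured ribosome assembly and growth genes that MYC activates, 23 fell in LP-1 and 6 fell in Raji. Among all 14232 genes, 762 fell in LP-1 and 363 in Raji. The median line difference of the 33 was 0.23, and 0.17 under quantile normalization. A single one was called, PPRC1, a coactivator related to PGC-1 (0.70 ± 0.13, adjusted p = 0.0272; up to 0.0824 without 1 array), which fell by 1.21 and by 0.50. NOP16 (0.80 ± 0.21, adjusted p = 0.113) and POLR1B (0.94 ± 0.32, adjusted p = 0.219), a nucleolar protein and an RNA polymerase I subunit, had larger values that missed it and were picked out for that.

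In Raji, 45 probe sets of 40 genes fell with no called response in LP-1, with median responses of -0.92 and 0.12. PRDM1, which encodes BLIMP1, the repressor that drives plasma cell differentiation, was at 6.41, 6.74, 6.71 and 6.36 in Raji under the inactive enantiomer and at 5.14, 5.44, 5.18 and 5.02 under the inhibitor. In LP-1 it was at 10.02, 10.06, 9.91 and 9.99 and then at 9.82, 9.95, 10.37 and 10.26. The Raji groups were apart and the LP-1 groups overlapped, with a line difference of -1.46 ± 0.15 (adjusted p = 0.0018). The untreated Raji arrays, both at 5.93, lay between, and with untreated cells as the control the value was -0.71 (adjusted p = 0.0881). IRF4, a partner of PRDM1 in plasma cells and a known dependency of myeloma, had a line difference of -0.01 ± 0.19 (95% interval -0.43 to 0.40, adjusted p = 0.983). Its responses were -0.04 in LP-1 and -0.05 in Raji, from unlike levels, with untreated means of 11.11 in LP-1 and 5.44 in Raji. Of 23 measured plasma cell genes, 8 fell in LP-1 and 6 in Raji, and PRDM1 and EDNRB were called in opposite directions. Among all 14232 genes, 762 fell in LP-1 and 363 in Raji.

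Of the 27 gene lists, B cell and germinal centre genes, also the longest measured list, held the highest number of called line differences, though not the highest share (14.7%, against 25% of leukocyte adhesion genes, 17.4% of chemotactic receptor and RGS genes and 15.8% of immediate early genes). Of 34 measured, 11 fell in Raji and 4 in LP-1, and 5 (CD180, TCL1A, GPR183, BCL6 and EBF1) had a called line difference, each lower in Raji. Among all 14232 genes, 363 fell in Raji and 762 in LP-1. Called line differences among these were 77 lower and 96 higher in Raji (1.22% in all). Of the 34, 7 had a line difference above 0, up to 1.33, and none of these was called. The median line difference of the 34 was -0.35 as deposited and -0.36 under quantile normalization and after centring. TCL1A, a coactivator of AKT made by B cells up to the germinal centre, was at 7.86, 8.35, 8.32 and 8.53 in Raji under the inactive enantiomer and at 7.5, 7.78, 6.84 and 7.11 under the inhibitor. In LP-1 it was at 4.01, 4.24, 4.12 and 3.88 and then at 4.80, 4.34, 4.15 and 4.82. On the untreated LP-1 arrays it was at 4.26 and 4.19, not far above the 25th percentile of 3.82, so it had little room to fall there. It fell in Raji without overlap, and the line difference was -1.43 ± 0.24 (adjusted p = 0.0182; up to 0.0587 without 1 array).

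GPR183, the oxysterol receptor EBI2 that positions B cells in the follicle, was at 5.13, 4.58, 4.24 and 4.50 in Raji and then at 3.23, 3.20, 3.51 and 3.49, and all 8 treated LP-1 arrays were between 2.40 and 3.01. Its line difference was -1.33 ± 0.24 (adjusted p = 0.0229; up to 0.0662 without 1 array), and the low LP-1 level left little room for a fall. CD180, a Toll-like receptor homologue on B cells, fell in both lines, by 1.75 in Raji and 0.68 in LP-1 (line difference -1.07 ± 0.18, adjusted p = 0.0162). EBF1, a factor that specifies B cell identity, fell by 0.53 in Raji and had a value of 0.24 in LP-1 (line difference -0.77 ± 0.15, adjusted p = 0.036). BCL6, the master repressor of the germinal centre, was at 8.35, 8.62, 8.72 and 8.63 in Raji and then at 8.19, 8.11, 8.13 and 8.03, a response of -0.47 that missed the threshold. It rose by 0.54 in LP-1, from a level below the 25th percentile, and its line difference was -1.0 ± 0.20 (adjusted p = 0.0344; up to 0.0943 without 1 array).

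Other genes with a fall in Raji alone included SCIMP, an adaptor of antigen-presenting cells and the single call among 22 measured B cell receptor signalling genes (-1.45 ± 0.27, adjusted p = 0.0278). ATF7IP, a partner of the histone methyltransferase SETDB1, was expressed alike in both untreated lines and fell by 1.07 in Raji (line difference -1.44 ± 0.19, adjusted p = 0.00513). In LP-1 it had a response of 0.38 (adjusted p = 0.127), with -0.07 at 4 h and 0.82 at 8 h (adjusted p = 0.0253). ITGAL, the LFA-1 integrin alpha chain, had a line difference of -0.82 ± 0.17 (adjusted p = 0.04), PRDM12, a neuronal PR domain factor, one of -1.63 ± 0.32 (adjusted p = 0.0333), the nicotinic receptor subunit CHRNA6 one of -1.96 ± 0.30 (adjusted p = 0.0114), and the olfactory receptor gene OR1E1 one of -1.56 ± 0.32 (adjusted p = 0.0391). Immune genes of this pattern that were picked out after their values were seen were the interleukin-7 receptor IL7R (-1.35 ± 0.26), the lymphocyte receptors SLAMF1 (-1.26 ± 0.23), CD84 (-1.06 ± 0.21) and FCRL3 (-0.87 ± 0.14), and the Toll-like receptors TLR10 (-1.14 ± 0.19) and TLR1 (-0.91 ± 0.17). The adjusted p of these 6 ran from 0.0132 for FCRL3 to 0.036 for CD84. All 6 were higher in untreated Raji, by 2.25 to 5.48, so the lower LP-1 level may have left less room for a fall. SCIMP and CHRNA6 were below the 25th percentile in untreated LP-1, so a fall there could hardly be seen. PRDM12 and OR1E1 each had a response of -0.85 in Raji. Their LP-1 responses of 0.78 and 0.71 went the other way and missed the threshold (adjusted p = 0.0574 and 0.0862). The LP-1 groups of both genes did not overlap, while the Raji groups of PRDM12 did. Without 1 array the adjusted p reached 0.114 for ITGAL, 0.0855 for PRDM12, 0.11 for OR1E1 and 0.0824 for SCIMP.

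A rise in Raji with no called response in LP-1 was found for 34 probe sets and 26 genes. ERP27, a chaperone of the endoplasmic reticulum, was at 3.59, 3.18, 4.08 and 3.51 in Raji under the inactive enantiomer and at 5.26, 5.73, 5.59 and 5.18 under the inhibitor, and LP-1 lay between 2.29 and 3.10 on all 8 arrays. It rose on every Raji array, with a line difference of 1.75 ± 0.32 (adjusted p = 0.0253), as the single call among 23 measured chaperone and secretory genes. CRIP1, a small LIM domain protein, was at 5.27, 5.25, 5.74 and 5.01 in Raji and then at 6.36, 6.60, 7.04 and 6.33 (line difference 1.89 ± 0.37, adjusted p = 0.0334). In LP-1 CRIP1 was at 4.04, 4.08, 3.98 and 3.98 and then at 2.59, 2.62, 3.86 and 4.54, so it was lower at 4 h only. The line difference was 2.68 at 4 h and 1.09 at 8 h. CD69, a lymphocyte activation antigen named here after its value was seen, rose by 1.09 in Raji (line difference 1.34 ± 0.22, adjusted p = 0.0155). Without 1 array the adjusted p reached 0.0776 for ERP27 and 0.0916 for CRIP1.

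**Figure D3:**
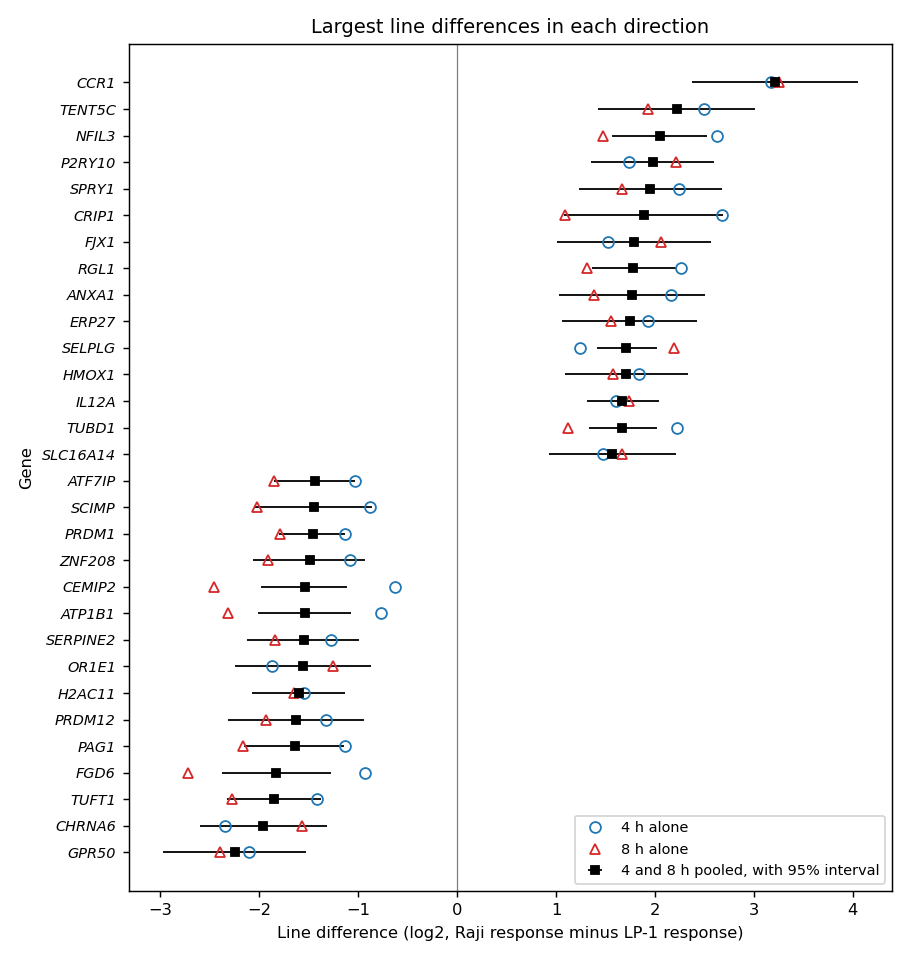
Line difference (log2, Raji response minus LP-1 response) of the 15 highest and 15 lowest called genes, as the pooled value with its 95% interval (black squares) and the values at 4 h (blue circles) and 8 h (red triangles). All 30 have the same sign at both times, which the choice of genes required, and range from -2.25 for GPR50 to 3.21 for CCR1.

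Over the 27 lists, 30 of 523 distinct genes had a called line difference (5.74%), against 173 of all 14232 genes measured (1.22%); the lists were assembled with earlier results of these data known, so this share is a description. The 10 lists without a call were the MYC and MAX network, BCL2 family genes, NF-kB targets, G1/S and DNA replication genes, G2/M and mitosis genes, ATF4 targets, sterol synthesis genes, lysosome and autophagy genes, cytosolic ribosomal protein genes and oxidative phosphorylation genes. Their median line differences ran from -0.22 for ATF4 targets to 0.23 for sterol synthesis genes, and those of the G1/S and G2/M lists, 0.05 and 0.09, became -0.07 and -0.03 under quantile normalization. Besides those described with their genes, lists with 1 call were interferon-stimulated genes (SAMD9L of 33), p53 targets (PLK2 of 22), DUSP and Sprouty feedback genes (SPRY1 of 14), and CIITA and HLA class II genes (CIITA of 7). CIITA, the master activator of HLA class II genes, fell in both lines, by 1.18 in LP-1 and 0.56 in Raji (line difference 0.62 ± 0.10, adjusted p = 0.0154). Among 16 NRF2 targets and iron genes HMOX1 lay higher and FTL lower in Raji, and among 16 leukocyte adhesion genes SELPLG and PECAM1 lay higher and ITGAL and ICAM3 lower.

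**Figure D4:**
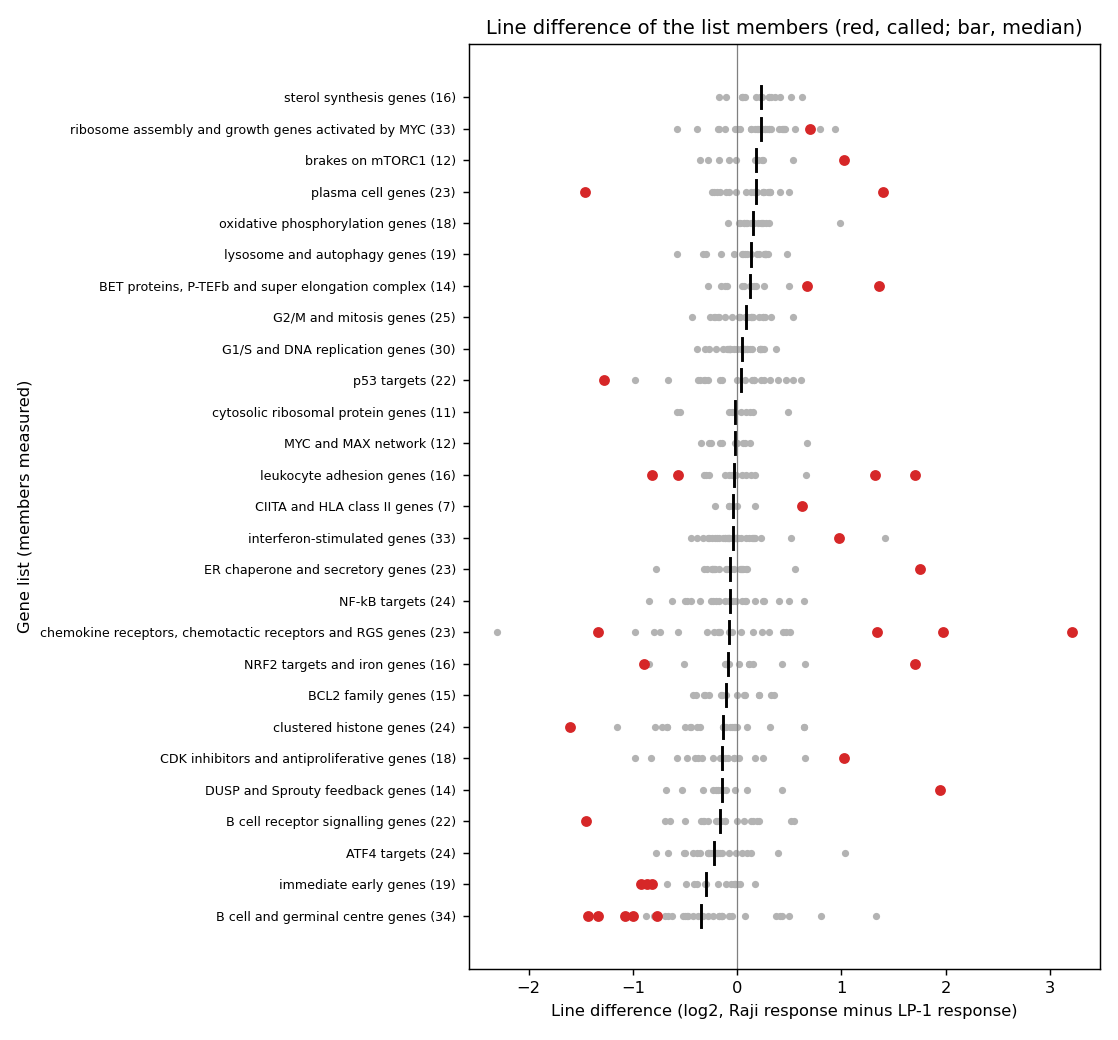
Line difference (log2) of each measured member of the 27 gene lists (y axis, with the number measured), with called members in red and the median as a black bar. B cell and germinal centre genes have the lowest median of the deposited values, -0.35 (under quantile normalization immediate early genes do, at -0.38), and 5 called members, all below 0; the ribosome assembly genes and sterol synthesis genes have the highest, 0.23.

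The level before treatment differed for most of the 208. It came from arrays that enter the value of a line difference nowhere, but enter its error, since the spread was estimated over all 20 arrays. Over all probe sets, untreated Raji was higher than untreated LP-1 for 6.79% and lower for 17.5%. Of the 45 that fell in Raji alone, 37 (82.2%) were higher in untreated Raji, with a median of 2.25. Of the 67 that fell in LP-1 alone, 42 (62.7%) were lower in untreated Raji, with a median of -1.33. Of the 9 that fell in LP-1 and rose in Raji, 8 (88.9%) were lower in untreated Raji, LPXN being the exception. The falls thus lay mostly in the line with the higher starting level. A probe set near background in the other line cannot show a fall there. Of the 45, 17 (37.8%) were below the 25th percentile in untreated LP-1, against 22.9% of all probe sets. Of the 67, 19 (28.4%) were below it in untreated Raji, against 22.7%. This percentile is no limit of background. Of 8 measured myeloid markers, 4 were below it in each untreated line, and others, such as CD14 at 4.53 in LP-1 and 4.40 in Raji, were not. More probe sets than those counted may thus have had little room for a fall. Of the 34 that rose in Raji alone, 20 (58.8%) were lower in untreated Raji, and of the 34 that rose in LP-1 alone, 6 (17.6%) were higher and 15 (44.1%) lower there. Under quantile normalization untreated Raji was higher for 2566 and lower for 3031 probe sets, against 1495 and 3847 as deposited, and after centring for 2231 and 3185.

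**Figure D5:**
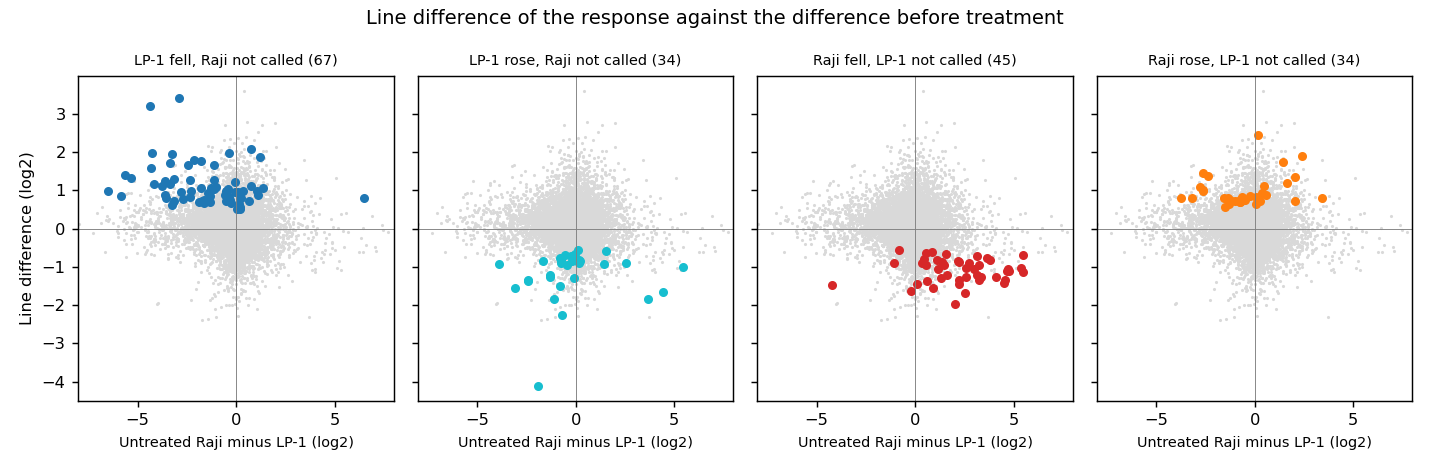
Line difference of the response (y axis, log2) against untreated Raji minus untreated LP-1 (x axis, log2) for the 4 most frequent patterns, with all probe sets that were not called in grey. Of the 45 probe sets that fell in Raji alone, 37 were called higher in untreated Raji, and of the 67 that fell in LP-1 alone, 42 were called lower there.

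The 4 and 8 h arrays, which share no array, gave the line difference separately. At 4 h, 25 probe sets were called (0.114%; 24 or 0.109% higher and 1 or 0.00454% lower in Raji), and at 8 h, 54 (0.245%; 20 or 0.0909% higher and 34 or 0.154% lower). Of the 25 called at 4 h, 22 had the same sign at 8 h and 3 were called there. Of the 54 called at 8 h, 48 had the same sign at 4 h, with 20 of 20 higher ones and 28 of 34 lower ones. Over all probe sets the values of the times correlated at r = 0.081, and their medians were 0.09 at 4 h and -0.07 at 8 h. The change of the line difference between 4 and 8 h was called for 0 probe sets by limma (0.0%), with 2405 at an unadjusted p under 0.05, so no difference between the times was shown for any gene. After centring of the arrays 4 probe sets were called at 4 h, all higher, and 60 at 8 h (28 higher and 32 lower), and under quantile normalization 16 at 4 h (11 higher and 5 lower). Every array moved the count of its own time by over 1.5 times. At 4 h it was 8 or 484 without replicate 1 or 2 of LP-1 with the inhibitor, 1 or 0 without those of LP-1 with the inactive enantiomer, 2 without either Raji array with the inhibitor, and 11 or 15 without those of Raji with the inactive enantiomer. At 8 h it was 31 or 131, 27 or 26, 25 or 17, and 21 or 21 in the same order of groups. The change between the times was called for 28 probe sets without replicate 2 of LP-1 with the inhibitor at 8 h and for 1 without replicate 1 of Raji with the inactive enantiomer at 4 h.

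Promoter windows of the called genes, from RefSeq on GRCh38.p14, ran from 250 bases before to 50 after an annotated start. A single window, the first listed, was kept per gene, so any other start was left out. Whether these cells use that start was not tested. Such windows were found for 11386 of 14232 measured genes. They were searched on both strands for CACGTG (the E-box bound by MYC and MAX), TGACTCA (AP-1), ATTTGCAT (the octamer of OCT factors), GAGGAAGT (PU.1) and TTCNNNGAA (STAT). CACGTG was in 8.99% of all windows, in 11.2% of those of genes higher in Raji and in 6.56% of those lower. Among genes that fell in LP-1 alone it was in 8 of 47 (17%), and among those that fell in LP-1 and rose in Raji in 1 of 8. The other shares over all windows were 3.57% for TGACTCA, 1.57% for ATTTGCAT, 2.56% for GAGGAAGT and 7.0% for TTCNNNGAA. ATTTGCAT was in 3 of 61 windows (4.92%) of genes lower in Raji and in 0 of 80 of those higher. These shares are descriptions, the groups shown were chosen after the values were seen, and a match is no evidence of binding.

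The 9 E-box windows of genes that fell in LP-1 with no called fall in Raji are printed because that pattern was the most frequent. For each, 30 bases are given 5′ to 3′ on the strand of the gene, with CACGTG in capitals. RGL1 (opposite responses, line difference 1.78) was at chr1:183636032-183636061 on the plus strand and FJX1 (1.79) at chr11:35618363-35618392, plus. PPARGC1A, the coactivator PGC-1alpha of mitochondrial genes (1.29 ± 0.17), was at chr4:24473011-24473040, minus, and TIMM10, a mitochondrial import chaperone (0.66 ± 0.12), at chr11:57530738-57530767, minus. TGFB2, a growth factor (1.08 ± 0.21), was at chr1:218345275-218345304, plus, and USP36, a nucleolar deubiquitinase (0.50 ± 0.10), at chr17:78840824-78840853, minus. THNSL1 (1.07 ± 0.17) was at chr10:25016566-25016595, plus, RHOBTB3 (0.84 ± 0.15) at chr5:95731232-95731261, plus, and LONRF3 (0.79 ± 0.15) at chrX:118974561-118974590, plus.
RGL1: gtccgattgcgtCACGTGattctcggtggg
FJX1: ccccctggctccCACGTGgtccgggcgcct
PPARGC1A: agtcagcgcgccCACGTGacggccccggct
TIMM10: ccggaagtaaccCACGTGcttccgctggag
TGFB2: gttgaaggcagaCACGTGgttcagagagaa
USP36: gcgtcgcggtgaCACGTGtgtgaggcgccg
THNSL1: agaaaggagagtCACGTGccctgcgcgagg
RHOBTB3: ccccggggctggCACGTGctgcgcccggtc
LONRF3: gtggcggcacgtCACGTGgtaccgttttat

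The octamer windows belonged to genes lower in Raji and are printed since octamer factors and their coactivator act in B cells; ATTTGCAT or its reverse complement is in capitals. ATF7IP was at chr12:14365622-14365651, plus, and SERPINA9, a serpin of germinal centre B cells (-1.27 ± 0.25, a fall of 1.00 in Raji), at chr14:94476275-94476304, minus. H2AC11, at chr6:27132824-27132853, plus, held the reverse complement. Octamers are a known element of histone gene promoters, and H2AC11 rose in both lines.
ATF7IP: cgcccatattaATTTGCATaacggccccgg
SERPINA9: aataatatatcATTTGCATgtcttagtaat
H2AC11: tagaatcgcttATGCAAATaaggtgaagag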

How the data were processed

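Amplified and biotin-labelled total RNA was hybridised to Affymetrix exon arrays, per the labels' protocols. The authors deposited log2 values made with RMA in Affymetrix Expression Console on hg19, per the submitters' processing notes; versions are not given in the sources used here. All 22011 probe sets were used as deposited, with array medians between 5.13 and 5.39. RMA compresses low values, so changes near background are understated; the deposited arrays do not share 1 distribution, with 75th percentiles from 6.75 to 7.23. Platform annotation gave 1 symbol for 14432 probe sets, several for 2408 and none for 5171; only the first are named, and 14404 of them were matched to RefSeq by Entrez identifier. Array number, not depth, limits the precision.

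A mean per group was fitted to 20 arrays (10 groups, 10 residual degrees of freedom) with limma 3.58.1 in R 4.3.3, with a prior of 2.59 degrees of freedom; tests were two-sided with Benjamini-Hochberg adjustment. Each p-value rests on the spread within groups of 2 arrays, which the labels call biological replicates. The analysis was tested on simulated data. Alternatives were other scalings (quantile, centring), a filter on low values, an intensity trend, a replicate block, fits without untreated arrays, time or single arrays, and untreated cells as the control. Genes named were MYC, HEXIM1, BRD2 and IRF4, the 15 largest calls each way with 1 sign at both times, up to 4 calls per list and 10 genes with opposite calls; any other gene named was chosen after its values were seen or completes a short count. The members and lists were chosen with earlier results of these data known. A gene with several probe sets was taken by the highest mean. Figures were drawn with matplotlib.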

Additional observations from a re-analysis of the deposited data

Results flagged for a closer look

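Of 232 sets of 4 arrays (1 gene in 1 line with 1 compound, 4 and 8 h together), 15 held an array far from the other 3. Chance gives about 1 in 20 for 4 values of 1 group. Each set here mixes the 2 times, so the count cannot be judged against that rate. The value is the gap to the nearest array over the whole range. Under the inactive enantiomer in LP-1 these were HEXIM1 at 8 h replicate 1 (0.917), BRD2 at 4 h replicate 2 (0.855), CD180 at 4 h replicate 2 (0.966), GPR183 at 8 h replicate 2 (0.937) and BCL6 at 4 h replicate 1 (0.918). Under the inhibitor in LP-1 they were OR1E1 (0.894) and BCL6 (0.833) at 8 h replicate 1, SLC16A14 at 4 h replicate 2 (0.967) and ZFP36 at 8 h replicate 2 (0.858). In Raji they were HEXIM1 at 4 h replicate 2 (0.832) and PECAM1 (0.859) and ZMIZ1 (0.884) at 8 h replicate 1 of the inactive enantiomer, and under the inhibitor MYC at 8 h replicate 2 (0.872), PAG1 at 8 h replicate 1 (0.908) and ATP1B1 at 4 h replicate 2 (0.876). PAG1 was at 7.70 there against 7.89 to 7.90, and SLC16A14 at 6.05 against 5.22 to 5.25.

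The response differed between the lines for 208 probe sets. Among named genes with opposite calls the line difference was 2.22 for TENT5C, 2.05 for NFIL3, 1.78 for RGL1, 1.71 for SELPLG, 1.39 for IL6ST, 1.36 for MLLT3, 0.90 for EMP3, 0.88 for RRP8, -1.23 for ZMIZ1 and -1.37 for OR4S2.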

How the results depend on the processing

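The pooled count of 208 was 102 in a fit of the 16 treated arrays alone, 64 with time left out of the model and 90 without both arrays of low 75th percentile (an alternative chosen after seeing the data); without single arrays it ran from 88 to 323. At 4 h the count of 25 was 104 without the lowest 33.3% of probe sets, 16 under quantile normalization, 4 after centring, 46 with an intensity trend, 1 with the treated arrays alone, 10 without both arrays and 0 to 484 without single arrays. At 8 h the count of 54 was 20 with the treated arrays alone and 17 to 131 without single arrays. The change with time was called for 1 probe set without both arrays and for 0 to 28 without single arrays. The response count was 947 in LP-1 and 707 in Raji with time left out, 673 in Raji against untreated cells, and without single arrays 828 to 1577 in LP-1 and 700 to 1147 in Raji. Replicate numbers did not pair the arrays (correlations of deviations -0.035 to 0.121 in LP-1 and -0.16 to 0.051 in Raji); with the replicate number as a block the counts were 135 pooled, 7 at 4 h and 34 at 8 h.

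Of 55 named called genes, 15 kept their call under every alternative run for them, 29 without each array in turn, 25 with time left out, 39 with the treated arrays alone, 45 under the block, 49 under quantile normalization and 35 against untreated cells. Against untreated cells 4 turned: ANXA1 (-0.86), HMOX1 (-0.46), EMP3 (-0.20) and OR4S2 (0.14). IRF4, near 0, turned to between 0.00 and 0.13 without single arrays. The cause of these shifts was not tested. With 4 arrays per line and compound the median standard error was 0.2 and the smallest called size 0.50; this is no detection limit, since larger values such as that of PTAFR (-2.30) missed the threshold.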
